A study of Mus musculus with 21 samples.

Results

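Cells captured from mouse retina through the surface protein Glast were compared between postnatal day 14 (P14, 3 arrays) and postnatal day 7 (P7, 2 arrays). The 5 arrays were chosen by their labels, out of 21 in the series, and all 12612 genes with a usable probe were compared. Glast is the glutamate transporter encoded by Slc1a3, which radial glia and Müller glia carry. Both groups came from the retina of C57BL/6 mice, a common inbred laboratory strain, with no altered allele and no treatment given in the labels, so that age is the only labelled difference. Each sample held 200000 to 500000 cells taken with a biotinylated antibody against Glast and magnetic beads. Whether the retinas of several animals were pooled for a sample is not given in the sources used here. The study's design text calls the arrays of an age independent biological replicates. The titles of the P28 arrays, however, share 1 sample code, and these arrays correlated at 0.995. Counted as 1 sample in the pooled spread, they left 1670 higher and 1531 lower calls and 1655 for the comparison with Notch1+ cells, against 1773, 1705 and 1921 as 2. The other arrays held Glast+ cells at P21 and P28 (2 arrays each) and cells captured through the receptor Notch1 at P0, P3, P7 and P14 (3 arrays each). They entered the fit that estimates the spread. A bead capture through 1 surface protein enriches cells that carry it and does not purify them.

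Müller glia are the main glial cells of the retina. They span its whole thickness, take up glutamate and turn it into glutamine, buffer potassium and water, and take part in the visual cycle. They arise from the same progenitors as the late-born neurons, rods and bipolar cells among them. In the mouse these progenitors stop dividing in the days after birth, and the photoreceptors grow their light-sensing outer segments around the time the eyes open.

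Levels are given as normalized intensity on the log2 scale, which ends near 16, where the scanner saturates. They can be compared between arrays for 1 probe, not between genes. The scanner software found 68.5% to 73.8% of 34312 transcript probes on the 5 arrays, and 5 to 20 of these probes were saturated on an array. All 5 were scanned on the same day. Across genes, the P7 arrays correlated at 0.988 with each other and at 0.909 to 0.926 with the P14 arrays. P14 replicates 1 and 2 correlated at 0.987, whereas replicate 3 stood slightly apart, at 0.963 and 0.959. Without it, 1702 genes were called higher and 1329 lower, against 1773 and 1705 with it.

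Many genes differed between P7 and P14. At an adjusted p under 0.05 (limma, Benjamini-Hochberg over all genes), 3478 of 12612 genes (27.58%) were called. Of these 1773 (14.06%) were higher and 1705 (13.52%) lower at P14. A change of at least 2-fold was called for 1349 higher and 794 lower genes, of at least 8-fold for 205 and 15, and of at least 16-fold for 42 and 2. The called rises had a median of 1.51 on the log2 scale and the called falls a median of −0.96, against −0.04 for all genes. The arrays of the 2 ages did not overlap for 7153 genes (56.72%), 25.48% higher and 31.24% lower, which includes many small differences. The balance of rises and falls depended on the scaling, also among large changes, where median scaling gave 975 higher and 1069 lower genes at 2-fold or more and the authors' values 1227 and 1332. Cyclic loess gave 1962 higher and 821 lower genes (70.5% of calls higher), and the authors' own processed values gave 1539 and 2394 (39.1%), against 51.0% here. Each P7 array also weighed on the falls, with 885 called lower without P7 replicate 1 and 798 without P7 replicate 2.

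The greatest rises joined genes of glia, rods, microglia and the stress response. Aqp4, the water channel of glial endfeet, stood at 6.81 and 7.28 on the P7 arrays and at 12.88, 13.15 and 13.54 on the P14 arrays. The difference of 6.15 ± 0.36 (log2, with the standard error of the fit) had an adjusted p of 9.86e-09 in limma. This is a 70.9-fold rise on the brightest of its 3 probes, with no overlap between the ages, while another probe of the same transcript differed by −0.24. Abca8a, a transporter of the ATP-binding cassette family found in Müller glia, rose from 8.61 and 8.77 to between 13.61 and 13.98. Tmem119, a surface protein of microglia, rose from 9.36 and 9.80 to between 14.38 and 15.04. Every P14 array of these genes lay far above every P7 array, and arrays without overlap were a condition for naming the largest changes.

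Guca1b, the calcium sensor that controls guanylate cyclase in photoreceptors, was at 7.88 and 7.67 at P7 and at 13.04, 14.01 and 12.85 at P14 (5.52 ± 0.74, limma adjusted p = 2.92e-05). Gnat1, the rod transducin subunit of the light response, rose by 4.56 ± 0.62 on a probe that was saturated on 1 P14 array, and its other probe differed by 6.52. Both had their highest P14 value on replicate 2, the array that also carried the most signal of other photoreceptor genes. Hspa1a, an inducible Hsp70 chaperone, rose by 5.04 ± 0.60, and Ier2, an immediate-early gene, by 4.69 ± 0.50. For both, P14 replicate 3 was the highest array, at 13.05 and 13.68, while the other P14 arrays lay between 11.65 and 11.73 for Hspa1a and between 11.90 and 12.002 for Ier2.

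Among the other large rises, Anxa1, which encodes the phospholipid-binding protein annexin A1, rose by 4.72 ± 0.33. Il33, a cytokine of the interleukin 1 family held in the nucleus, rose by 4.67 ± 0.46, and Myo5b, an unconventional myosin of vesicle transport, by 4.64 ± 0.31. P2ry13, an ADP receptor found on microglia, was at 9.70 and 9.68 at P7 and between 14.14 and 14.41 at P14. Pcolce2, an enhancer of procollagen processing, was not found by the scanner software on either P7 array and was at least 23.7-fold higher at P14. Its other probe differed by 0.48. The bound sets the P14 mean against the higher, on each P7 array, of the probe's own signal and the lowest signal of a found probe. The probe's own signal was the higher on each P7 array, so the bound equals the measured fold. Such a bound holds for this processing only. Over the alternatives the Pcolce2 difference went down to 2.52 on the log2 scale, against 4.57 here.

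Rises with the smallest adjusted p were very even between replicates, which a ranking by p favours. Ptgs1, the constitutive cyclooxygenase, was at 8.58 and 8.61 at P7 and at 12.52, 12.58 and 12.18 at P14 (3.83 ± 0.17, limma adjusted p = 1.04e-09). Slc17a8, the vesicular glutamate transporter VGLUT3, was not found at P7 and was at least 13.1-fold higher at P14 (limma adjusted p = 1.19e-09). Cyp4f14, a cytochrome P450 enzyme, rose by 4.19 ± 0.22. Asb2, which recruits substrates to a ubiquitin ligase, rose by 3.65 ± 0.20. Slc17a8 and Cyp4f14 were at 10.87 and 12.34 in Glast+ cells at P28, above their P14 means, whereas Ptgs1 and Asb2 were lower at P28 (10.70 and 10.35) than at P14. These later levels are means of 2 arrays and were not tested.

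**Figure D1:**
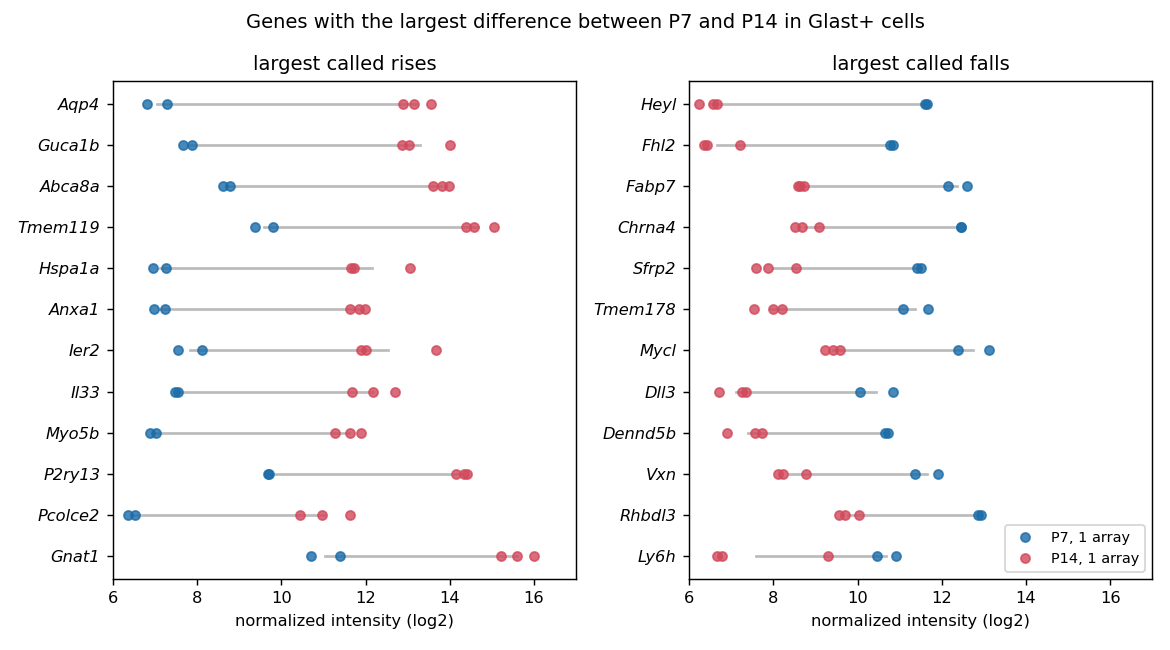
Normalized intensity (log2, horizontal axis) of the 12 genes with the largest called rise (left) and the 12 with the largest called fall (right) in Glast+ cells; each dot is 1 array (2 at P7, 3 at P14) and each grey line joins the group means. The genes were chosen with no overlap between P7 and P14 dots. Aqp4 differs by 6.15 and Heyl by −5.13.

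Of 26 measured markers of Müller glia, 5 were called higher, a share near the 14.06% of all genes, and 0 lower (13.52% of all genes), and the list median was 0.13, against −0.04 for all genes. The list median lay between −0.12 and 0.56 over the alternative settings. Slc1a3, through whose protein the cells were captured, was at 15.77 and 16 at P7 and at 15.52, 15.54 and 15.80 at P14. These arrays overlapped, the difference of −0.27 ± 0.46 did not pass (limma adjusted p = 0.734), and 1 P7 array was saturated. Rlbp1, the retinaldehyde-binding protein of the visual cycle, differed by 0.36 ± 0.54 with overlapping arrays. Vim, the intermediate filament of immature and mature Müller glia, differed by −0.34 ± 0.19, and the glial transcription factor Sox9 by −0.69 ± 0.36, and neither passed. All 4 of these genes were bright on every array of both ages, between 14.54 and 16. Vim and Sox9 were called lower with median scaling (−0.87 and −1.29) and with the authors' values (−0.79 and −1.21), and Sox9 also when only the Glast+ arrays were normalized together (−0.95). No probe matched Kcnj10, a potassium channel of these cells.

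The 5 markers that rose were Aqp4, Abca8a, Clu, Glul and Timp3. Clu, a secreted chaperone, stood at 11.78 and 11.86 at P7 and at 15.89 to 16 at P14, where 2 arrays were saturated (4.12 ± 0.37, limma adjusted p = 4.49e-07). Glul, the glutamine synthetase that removes captured glutamate, was at 13.33 and 13.02 at P7 and at 14.76, 14.68 and 15.02 at P14. Its rise of 1.65 ± 0.41 passed (limma adjusted p = 0.00634), although not with median scaling or without P7 replicate 2. Timp3, an inhibitor of matrix proteases, rose by 1.42 ± 0.23. Gfap, the filament that Müller glia make under stress and astrocytes make at rest, was at 6.97 and 7.03 at P7 and at 8.99, 7.34 and 10.70 at P14. Its rise of 2.01 ± 0.57 (limma adjusted p = 0.0148) was carried unevenly, with replicate 2 close to the P7 arrays and replicate 3 far above them. The rise was called in 14 of 19 alternatives, and the losses included leaving out either P7 array. Another Gfap probe differed by 0.09.

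**Figure D2:**
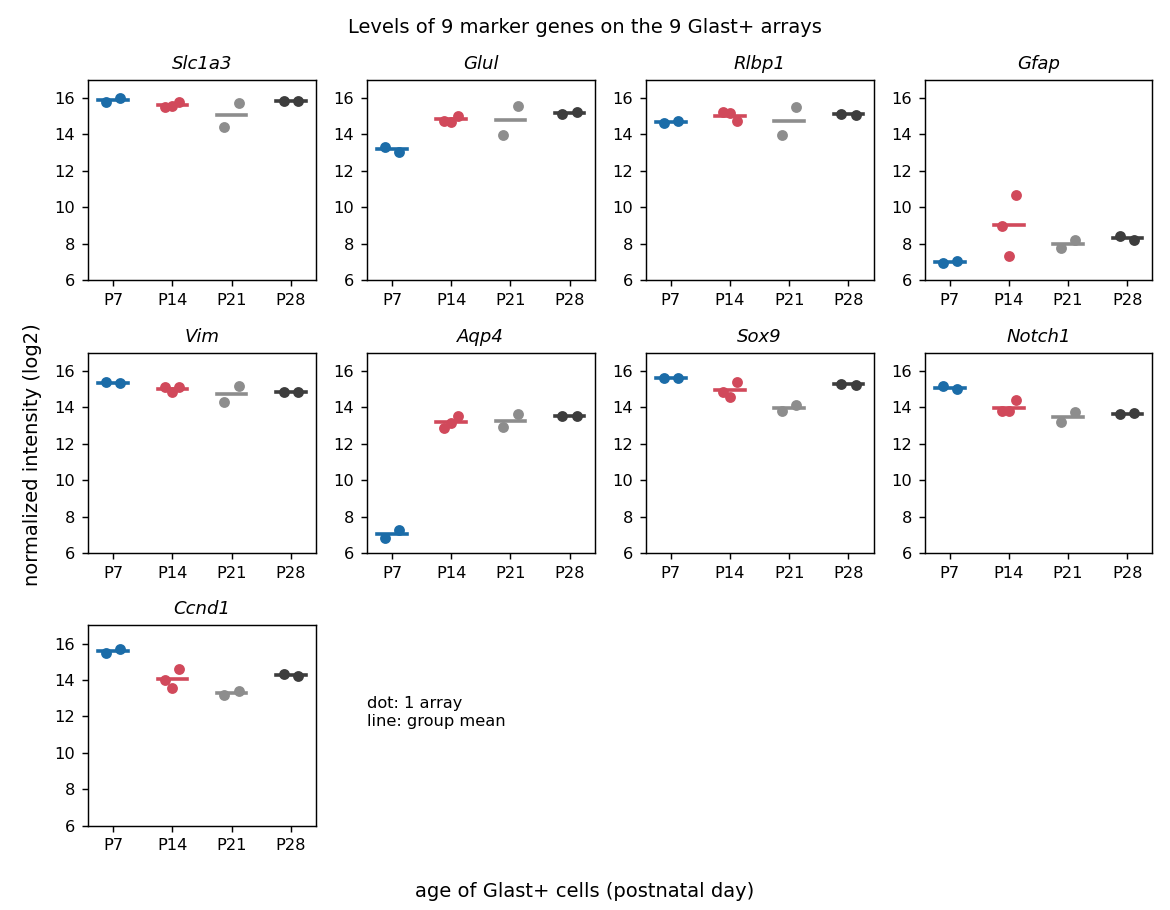
Normalized intensity (log2, vertical axis) of 9 marker genes on the 9 Glast+ arrays by age; each dot is 1 array and each line a group mean. Slc1a3, Rlbp1, Vim and Sox9 stay near the top of the scale, Aqp4 rises between P7 and P14, and Notch1 and Ccnd1 fall.

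Genes of mature glial transport and metabolism were called higher or not called, while 14.06% of all genes were called higher and 13.52% lower. Of 22 measured members 9 were called higher and 0 lower, with a median of 0.78, and 5 were called without P7 replicate 2. Besides Aqp4 and Glul, the second water channel Aqp1 rose by 2.99 and the gap junction protein of astroglia, Gja1, by 2.10 ± 0.42. Gpr37l1, a glial receptor, was at 7.17 and 7.31 at P7 and at 9.50, 8.84 and 9.35 at P14. The GABA transporter Slc6a11 rose by 1.24. The lactate transporters Slc16a1 (0.01) and Slc16a3 (−0.12) did not pass. Gja1 did not hold its level, with means of 11.30 at P21 and 11.48 at P28 against 13.10, 12.99 and 13.55 at P14, and these later means were not tested.

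Genes of the Notch pathway were among the falls, Heyl with the greatest one. In Notch signalling, ligands of the Delta and Jagged families on 1 cell activate receptors on its neighbour, and the receptor's inner part then turns on repressors of the Hes and Hey families, which hold back neuronal differentiation. Of 26 measured genes of the pathway 10 were called lower and 2 higher, with a median of −0.58. The shares over all genes were 13.52% lower and 14.06% higher. Among the ligands, Dll1 (−2.06), Dll3 (−3.33 ± 0.73) and Dll4 (−1.11) fell, while Jag1 (0.64) and Jag2 (0.18) did not pass. The receptor Notch1 was at 15.15 and 14.99 at P7 and at 13.77, 13.77 and 14.39 at P14, a difference of −1.10 ± 0.21 (limma adjusted p = 0.000841).

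Among the targets of the pathway, Heyl showed the largest fall of all genes. It was at 11.64 and 11.61 at P7 and at 6.25, 6.57 and 6.65 at P14 (−5.13 ± 0.48, limma adjusted p = 6.56e-07). Hey1 was at 14.07 and 14.40 at P7 and at 12.02, 11.33 and 12.57 at P14. Both ages were clearly apart for both genes, and Hey2 fell too (−1.91 ± 0.29). Nrarp, a feedback inhibitor of the pathway (−1.14), and Maml1, a coactivator (−1.04), fell as well. Hes5, a Notch target of progenitors, differed by −1.28 and did not pass. Hes1 went the other way, from 12.52 and 13.16 to 14.55, 14.23 and 14.11 (1.45 ± 0.26, limma adjusted p = 0.000489). Numb, an inhibitor of Notch, rose by 1.05.

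Markers of retinal progenitors fell in part. Of 20 measured, 5 were called lower and 2 higher, with a median of −0.41, against 13.52% lower and 14.06% higher over all genes. Sfrp2, a secreted Wnt modulator of progenitors, was at 11.41 and 11.50 at P7 and at 8.53, 7.88 and 7.59 at P14 (−3.46 ± 0.55). Nes, the progenitor filament nestin, fell (−2.95 ± 0.29), although its other probe differed by −0.26. Cdk4 and Ccnd1, the kinase and the cyclin that drive the entry into the cell cycle, fell (−1.91 ± 0.18 and −1.52 ± 0.28). Fgf15 fell by 1.27. The homeobox genes that mark both progenitors and later cells did not pass, with Pax6 at 0.32 ± 0.64, Rax at −0.57 and Six3 at −0.33. The sign of the Pax6 difference turned with median scaling (−0.064).

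Neurogenic factors drive progenitors towards neurons. Of 23 measured, 10 were called lower and 1 higher, with a median of −1.03, against 13.52% lower and 14.06% higher over all genes. Sox4, which acts in young neurons, was at 14.89 and 14.90 at P7 and at 13.05, 12.80 and 13.15 at P14 (−1.89 ± 0.37). Sox11, its relative, fell (−1.75 ± 0.32), as did Hes6 (−1.82). Olig2 fell (−1.85 ± 0.38), with another probe at −0.11. Ptf1a, the factor of amacrine and horizontal cells, had no spot found at P14, which makes it at least 3.06-fold lower than at P7. Over the alternatives the Ptf1a difference shrank to −1.11 on the log2 scale, against −1.62 here. Neurog2 (−0.08) and Atoh7 (−0.32), factors of earlier neurogenesis, did not pass. The 1 called rise was Btg2 (1.996), an antiproliferative gene that is also an immediate-early gene, and it was not called when any 1 of the 5 arrays was left out.

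Other large falls were of varied function. Fhl2, a LIM-domain adaptor protein, was at 10.84 and 10.78 at P7 and at 6.36, 6.44 and 7.21 at P14 (−4.14 ± 0.31, limma adjusted p = 7.38e-08). Fabp7, the fatty acid-binding protein of radial glia, fell (−3.72 ± 0.96) and was at 6.38 at P28. Chrna4, a nicotinic receptor subunit, and Mycl, a gene of the Myc family, fell as well (−3.69 ± 0.75 and −3.34 ± 0.49). The remaining genes among the 12 largest falls were Tmem178, Dennd5b, Vxn, Rhbdl3 and Ly6h. Ly6h was uneven at P14 (9.30, 6.79 and 6.65), its other probe differed by 0.40, and it turned to 0.47 with the authors' values. Among the falls with the smallest adjusted p, Areg, a ligand of the EGF receptor, fell (−2.05 ± 0.16, limma adjusted p = 1.32e-07). Opn3, a non-visual opsin (−2.08 ± 0.18), and Hhip, an antagonist of hedgehog ligands (−3.02 ± 0.27), fell with similar evenness, which this ranking favours.

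Most measured genes of mitosis fell. Many genes of mitosis carry, close to their start, a short sequence called the CHR element (cell cycle genes homology region), through which a repressor complex silences them in resting cells. The promoters of Top2a, Ttk and Kif23, the members with the smallest adjusted p that have an entry in the RefSeq promoter table (GRCm38.p6), are shown because they carry matches to it. Each runs 5′ to 3′ from 250 bases before to 50 after the gene's start, and capitals mark TTTGAA or TTCGAA on either strand (TTTGAA reads as TTCAAA from the other strand, and TTCGAA reads the same from both).
Top2a promoter, chr11:99024140-99024439, minus strand: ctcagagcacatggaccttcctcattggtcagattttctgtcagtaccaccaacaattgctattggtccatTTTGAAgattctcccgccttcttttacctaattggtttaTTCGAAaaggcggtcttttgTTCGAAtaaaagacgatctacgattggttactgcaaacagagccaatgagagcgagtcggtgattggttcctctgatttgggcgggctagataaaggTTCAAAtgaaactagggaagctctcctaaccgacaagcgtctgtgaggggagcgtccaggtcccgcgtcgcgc
Ttk promoter, chr9:83834439-83834738, plus strand: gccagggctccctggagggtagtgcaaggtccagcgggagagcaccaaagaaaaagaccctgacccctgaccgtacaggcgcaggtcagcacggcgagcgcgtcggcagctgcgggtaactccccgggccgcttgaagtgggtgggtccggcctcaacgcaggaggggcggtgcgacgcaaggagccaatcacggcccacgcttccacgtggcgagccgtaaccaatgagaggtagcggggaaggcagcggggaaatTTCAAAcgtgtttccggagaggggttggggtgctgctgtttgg
Kif23 promoter, chr9:61946750-61947049, minus strand: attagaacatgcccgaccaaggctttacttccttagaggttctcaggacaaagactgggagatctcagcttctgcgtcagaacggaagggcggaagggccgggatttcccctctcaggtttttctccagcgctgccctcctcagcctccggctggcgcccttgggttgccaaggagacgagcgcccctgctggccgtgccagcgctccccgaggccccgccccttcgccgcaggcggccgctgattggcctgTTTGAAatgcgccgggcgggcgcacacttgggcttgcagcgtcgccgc

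A match was found in 19 of 26 measured mitosis genes with a promoter entry (73.1%) and in 18 of the 22 that were called (81.8%). It was found in 5 of 25 measured genes of DNA replication (20%), in 17.2% of all 10037 measured genes with an entry and in 21.7% of all 27025 genes in the table. The match is a description of these letters and no evidence of binding.

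Of 31 measured genes of mitosis 25 were called lower and 1 higher, with a median of −1.71. The shares of all genes were 13.52% lower and 14.06% higher. The arrays of the 2 ages did not overlap for 30 of the 31 mitosis genes (56.72% over all genes). Top2a, the topoisomerase that untangles chromosomes, was at 9.15 and 9.43 at P7 and at 6.88, 6.68 and 6.70 at P14 (−2.53 ± 0.23, limma adjusted p = 4.41e-07). Ttk, a kinase of the spindle checkpoint, was at 8.49 and 8.44 at P7 and at 6.97, 6.48 and 6.80 at P14. Tpx2, a spindle assembly factor, and Kif23, a motor protein of cell division, fell (−2.80 ± 0.30 and −2.35 ± 0.26). The P14 levels of Top2a and Ttk were close to the dim end of the scale. The cyclins Ccnb1 (−2.64) and Ccna2 (−2.58), the kinase Cdk1 (−1.76) and the activator Cdc20 (−2.56) fell too. Spc25, a kinetochore protein, was the exception that rose (1.53).

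Genes of DNA replication and of the entry into S phase fell or did not pass, while 13.52% of all genes were called lower and 14.06% higher. Of 29 measured 17 were called lower and 0 higher, with a median of −0.96, and 11 were called lower without P7 replicate 2. Mcm2 and Mcm7, subunits of the replicative helicase, fell (−2.52 ± 0.31 and −2.06 ± 0.22). Rrm2, which makes deoxynucleotides, was at 9.97 and 10.12 at P7 and at 7.97, 7.65 and 7.48 at P14, with another probe at 0.08. Uhrf1, which copies DNA methylation after replication, fell by 2.38. Pcna (0.08) and Fen1 (−0.40) did not pass. The inhibitors of cyclin-dependent kinases had no common direction. Cdkn1a rose by 1.69 ± 0.59 (limma adjusted p = 0.0434). It was called in 9 of 19 alternatives, and the losses included leaving out either P7 array, P14 replicate 1 or P14 replicate 3. Cdkn2c fell by 1.30, and the other 5 of 7 did not pass. In bulk samples, fewer cells of a kind and less RNA per cell cannot be told apart, which holds for all results here.

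Rod genes were called higher or not called, with wide scatter between arrays. Of 33 measured 15 were called higher and 0 lower, with a median of 1.49, against 14.06% higher and 13.52% lower over all genes. Recoverin (Rcvrn), a calcium-binding protein of the light response, was at 8.41 and 7.06 at P7 and at 11.31, 11.66 and 10.70 at P14 (3.49 ± 0.54, limma adjusted p = 0.000124). The ages did not overlap, but the P7 arrays lay apart, with replicate 1 higher. The exchanger Slc24a1 rose by 4.06 and the cyclic GMP phosphodiesterase subunits Pde6a and Pde6b by 1.71 and 1.70. Genes that act early in rod fate did not pass, with Nrl at 0.66 ± 0.63, Nr2e3 at −0.16 and Crx at −0.78. Nrl itself was at 14.26 and 12.18 at P7, with replicate 1 above 2 of the 3 P14 arrays. The mean of the list was 10.65 and 9.35 on the P7 arrays and 11.67, 12.51 and 10.98 on the P14 arrays. Without P7 replicate 2, the lower P7 array, 6 of the rod genes were called and the list median was 0.68.

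The factors Crx and Otx2, which switch on photoreceptor genes, bind a core sequence TAATCC. Of the 7 called rod genes with an entry in the promoter table, 2 had a match, Aipl1 (2.68), a chaperone needed for the phosphodiesterase, and Sag (2.48), which encodes the arrestin of rods. Their promoters are shown in the same way (GRCm38.p6), with TAATCC or, as read from the other strand, GGATTA in capitals.
Aipl1 promoter, chr11:72037460-72037759, minus strand: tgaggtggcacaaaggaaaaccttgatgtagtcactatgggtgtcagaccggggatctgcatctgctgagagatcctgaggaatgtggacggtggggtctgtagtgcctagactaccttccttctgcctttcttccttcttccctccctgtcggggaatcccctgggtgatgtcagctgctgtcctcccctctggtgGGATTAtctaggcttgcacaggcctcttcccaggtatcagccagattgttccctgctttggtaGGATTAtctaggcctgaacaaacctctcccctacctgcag
Sag promoter, chr1:87803430-87803729, plus strand: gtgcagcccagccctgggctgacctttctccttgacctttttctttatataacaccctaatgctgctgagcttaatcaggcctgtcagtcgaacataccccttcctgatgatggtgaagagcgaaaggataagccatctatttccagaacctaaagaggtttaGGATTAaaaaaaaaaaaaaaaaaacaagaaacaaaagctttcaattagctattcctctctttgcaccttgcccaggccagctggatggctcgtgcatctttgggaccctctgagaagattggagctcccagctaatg

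A match was found in 10 of 24 measured rod genes with an entry (41.7%), against 7.37% of the measured genes and 8.14% of all genes in the table. Of the cone genes with an entry, 2 of 10 measured (20%) and 0 of 2 called had a match. The called rod genes without a match included Slc24a1 and Pde6b. The absence of the letters in this window shows nothing about the factors.

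Cone genes followed the rod genes in their scatter, and the cone counts stand beside 14.06% higher and 13.52% lower over all genes. Of 14 measured, 3 were called higher and 0 lower, with a median of 0.48, and 1 was called higher without P7 replicate 2 or without P14 replicate 2. Opn1mw, the middle-wave cone opsin, was at 6.84 and 6.60 at P7 and at 10.11, 11.93 and 9.88 at P14 (3.92 ± 0.71, limma adjusted p = 0.000518). Opn1sw, the short-wave opsin, stayed at the dim end (0.24 ± 0.42, overlapping). Cone arrestin, Arr3, rose by 2.18 ± 0.71 and the potassium channel subunit Kcnv2 by 2.15 ± 0.72. Arr3 was called in 13 and Kcnv2 in 11 of 19 alternatives. P14 replicate 2 held the highest value for Opn1mw, Arr3, Kcnv2 and Nrl alike.

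Among the other neurons, bipolar cell genes were mixed. Of 18 measured, 7 were called higher and 2 lower, but only 1 was called higher without P7 replicate 2, 2 without P14 replicate 2 and 3 without P7 replicate 1. Lrtm1 (1.95 ± 0.49) and Vstm2b (1.11 ± 0.25) rose, whereas Prkca, the protein kinase C of rod bipolar cells, and the homeobox gene Irx6 fell (−1.13 ± 0.19 and −1.93 ± 0.47). Of 16 measured amacrine and horizontal cell genes 0 were called higher and 4 lower, and 1 was called lower without P7 replicate 1. Onecut2, a factor of horizontal cells, was at 9.37 and 8.52 at P7 and at 6.57 to 6.75 at P14. Gad2 fell by 0.78, and Gad1, the other enzyme that makes GABA, overlapped (0.42 ± 0.74). Of 16 ganglion cell genes only Thy1 was called (3.61 ± 0.57), and its other probe differed by 0.12. Pou4f1, a defining factor of ganglion cells, was at 6.51 to 6.70 on all 5 arrays. Of 20 synaptic vesicle genes 2 were called higher and 1 lower, below the 14.06% and 13.52% of all genes, with 4 higher without P7 replicate 1 and 1 without P7 replicate 2. Among them was Cplx4, a complexin of photoreceptor and bipolar synapses, which rose 9.85-fold (limma adjusted p = 0.000449).

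Genes of microglia, the resident macrophages of the retina, rose without exception among those measured, while 14.06% of all genes were called higher. All 18 measured members were called higher, with a median of 2.57, and between 15 and 17 were called when any 1 of the 5 arrays was left out. Cx3cr1, the fractalkine receptor, was at 11.62 and 11.65 at P7 and at 14.56, 15.34 and 14.57 at P14 (3.19 ± 0.43, limma adjusted p = 3.64e-05). Ly86, a partner of an immune receptor, was at 11.24 and 11.71 at P7 and at 14.88, 14.94 and 14.49 at P14. Every P14 array lay above every P7 array for all 18 genes, as for 25.48% of all genes. Aif1, the calcium-binding protein Iba1, rose by 2.04 ± 0.49, the complement gene C1qa by 2.76, Trem2 by 3.14 and P2ry12 by 2.63. The mean of the list was 10.56 and 10.90 at P7 and 13.64, 13.68 and 13.01 at P14. At P21 it was 12.46 and 12.65 and at P28 12.15 and 12.19, lower than at P14 on every array. Signal of these genes was thus present in the Glast+ samples at both ages and stronger at P14, where the dimmest member on any array was at 8.53. Its part in the other differences was not tested.

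**Figure D3:**
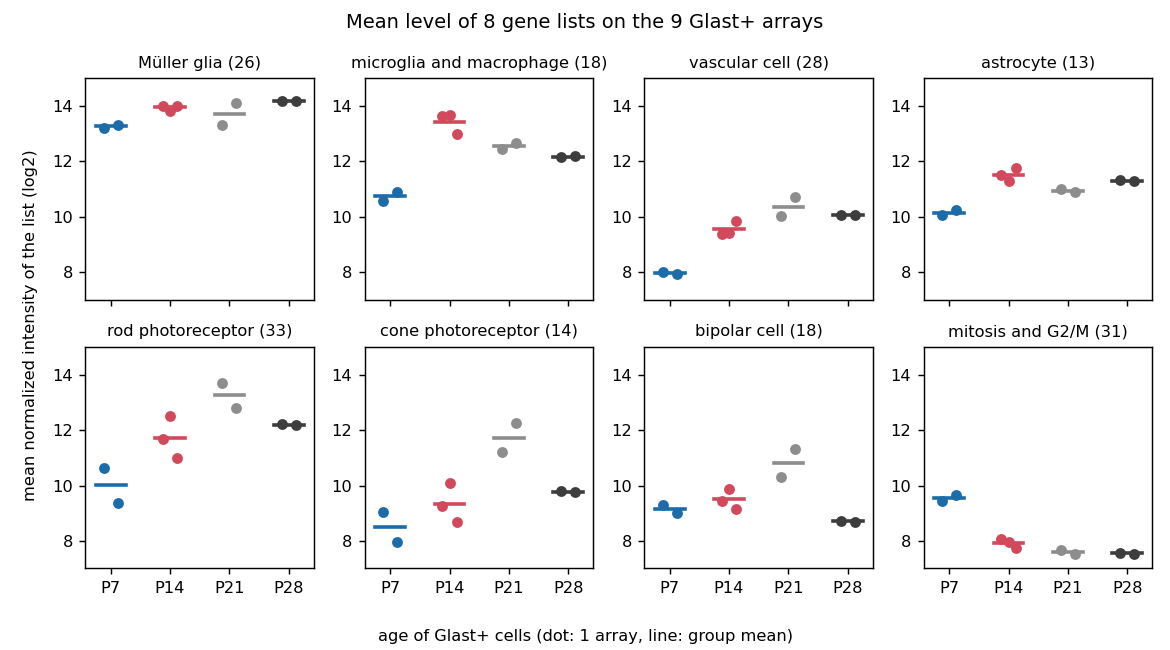
Mean normalized intensity (log2, vertical axis) of 8 gene lists on the 9 Glast+ arrays by age, with the number of measured genes in brackets; each dot is 1 array and each line a group mean. The microglia list peaks at P14 (13.01 to 13.68), the mitosis list falls after P7, and the rod list differs between the P7 arrays (10.65 and 9.35).

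Vascular genes rose as well. Of 28 measured 18 were called higher and 1 lower, with a median of 1.92, against 14.06% higher and 13.52% lower over all genes. Cldn5, the claudin of the endothelial barrier, was at 9.39 and 8.90 at P7 and at 13.23, 13.16 and 13.61 at P14 (4.19 ± 0.28, limma adjusted p = 3.07e-08). Icam2, an adhesion molecule of endothelium, rose by 4.04 ± 0.50, Pecam1 by 2.75 ± 0.53 and Cdh5, the endothelial cadherin, by 1.66 ± 0.39. Pericyte genes were mixed, with Pdgfrb (1.45) and Rgs5 (1.55) higher, while Cspg4 (−0.14), Kcnj8 (0.29) and Abcc9 (0.19) did not pass. Mcam, an adhesion molecule of vessels and other cells, was the exception, at 13.39 and 13.64 at P7 and at 10.98, 10.79 and 11.31 at P14. The mean of the vascular list was 7.99 and 7.91 at P7 and 9.38, 9.40 and 9.83 at P14, without overlap.

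Of 13 astrocyte genes 7 were called higher and 0 lower, several of which Müller glia share, such as Aqp4 and Gja1. Agt, angiotensinogen, was at 8.61 and 8.78 at P7 and at 12.13, 12.12 and 11.44 at P14. S100b rose by 1.27 ± 0.16 and Aldh1l1, an enzyme of folate metabolism, by 1.39 ± 0.26. Pax2, which marks astrocytes of the optic nerve and retina but not Müller glia, differed by 0.04. In the list of the pigment epithelium, the cell layer behind the retina, 6 of 13 were called higher. These were Ttr (3.42 ± 0.59), Gpnmb (3.76 ± 0.77), Mitf (1.57 ± 0.25), Pmel (1.43 ± 0.32), Rgr and Otx1. The other probes of Mitf and Pmel differed by 0.33 and 0.18. The defining genes Rpe65 (0.15 ± 0.46) and Best1 (0.01 ± 0.27) lay at the dim end, between 6.44 and 7.56, and overlapped. Gpnmb is also a gene of reactive macrophages, and Rgr one of Müller glia. Lens crystallins split, with Cryba4 and Crybb1 higher, Cryba1 and Crybb3 lower, and 7 of 11 not called. Over all genes 14.06% were called higher and 13.52% lower. The 7 erythroid genes did not pass, and Hba-a1, a haemoglobin chain, scattered from 7.73 to 12.25.

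Genes of reactive gliosis, stress and the interferon response rose in the same arrays. Of 23 gliosis genes 14 were called higher and 0 lower (median 1.49), and of 23 immediate-early and stress genes 14 and 0 (median 1.93). Of 21 interferon and MHC class I genes 14 were called higher and 0 lower (median 1.37). These counts stand against 14.06% higher and 13.52% lower over all genes, with a median of −0.04. C4b, a complement component, was at 7.61 and 7.43 at P7 and at 10.10, 9.12 and 10.49 at P14 (2.39 ± 0.29). A2m, a protease inhibitor of plasma, rose by 2.63 ± 0.26, and Cntf, ciliary neurotrophic factor, by 1.70 ± 0.23. The other Cntf probe differed by −0.42 and another C4b probe by 0.11. Cd44 (2.55), Socs3 (2.40) and Serpina3n (2.21) rose too, whereas Vim, Stat3 (−0.37) and Fgf2 (0.28) did not pass.

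Atf3, a stress-induced transcription factor, was at 11.72 and 12.04 at P7 and at 15.34, 15.20 and 14.95 at P14 (3.28 ± 0.34, limma adjusted p = 2.29e-06). Hspb1, a small heat shock protein, rose by 3.49 ± 0.41 and Junb by 3.01. The other Hspb1 probe differed by 0.25. Fos (0.69), Egr2 (0.52) and Egr3 (−0.89) did not pass, and Egr1 was saturated on all 3 P14 arrays. The mean of the immediate-early and stress list was 11.39 and 11.54 at P7, 12.97 to 13.70 at P14, 12.60 and 11.46 at P21, and 13.56 and 13.55 at P28. It was thus higher at P14 and P28 than at P7, with P21 between or near P7.

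Among the interferon-responsive genes, H2-K1, a heavy chain of MHC class I, was at 8.90 and 9.26 at P7 and at 12.39, 12.25 and 12.65 at P14. Ifitm3, an interferon-induced membrane protein, rose by 4.13 ± 0.37, H2-T23 by 3.00 ± 0.35 and the immunoproteasome subunit Psmb8 by 2.93 ± 0.37. Another Psmb8 probe differed by 0.37. B2m, the shared light chain of MHC class I, rose by 1.21, while H2-D1 differed by −0.07 and did not pass. Markers of microglia and vessels rose in the same samples, and their part was not tested.

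Some signalling genes rose. Of 24 genes of the TGF-beta and BMP pathways 9 were called higher and 1 lower, and 4 were called higher without P7 replicate 1 and 5 without P7 replicate 2. Tgfbr2, the type II receptor of TGF-beta, was at 10.61 and 11.04 at P7 and at 14.74, 15.03 and 14.58 at P14 (3.96 ± 0.42), while its other probe differed by 0.37. Bmp7 rose by 1.07 ± 0.16, Tgfb1 by 1.11 ± 0.21 and the target genes Id1 and Id2 by 1.62 and 1.55. Of 24 growth factor and neurotrophic genes 8 were called higher and 0 lower, among them Serpinf1, the neurotrophic factor PEDF (3.27 ± 0.31), and Igfbp5, a binding protein of insulin-like growth factors (2.78 ± 0.31). No Fgf1 spot was found at P7, and the gene was at least 3.88-fold higher at P14. Over the alternatives the Fgf1 difference went down to 1.49 on the log2 scale, against 1.95 here. In the Wnt and Hippo list 5 of 27 were called higher and 3 lower, with 1 higher without P7 replicate 1, 1 lower without P7 replicate 2 and 5 lower without P14 replicate 3. Ccn1, a matricellular target of the Hippo pathway, rose by 2.49 ± 0.59 but was not called without P7 replicate 1. Wnt5a rose by 0.86 and Wnt5b fell by 1.27. The counts of these lists stand against 14.06% higher and 13.52% lower over all genes, and the Wnt and Hippo median was 0.08.

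In the list of nuclear factor I and glial identity factors 5 of 21 were called higher and 4 lower, against 14.06% and 13.52% of all genes, and 3 and 3 without P7 replicate 1. Nfic rose by 1.28 ± 0.23, Nfib fell (−1.03 ± 0.34, a call that was lost when any array other than P14 replicate 3 was left out), and Olig1 fell (−2.20 ± 0.35). Of 28 chromatin and DNA methylation genes 9 were called lower and 2 higher, and 5 were called lower without either P7 array. Hdac2, a histone deacetylase, was at 13.79 and 13.69 at P7 and at 12.46, 12.87 and 12.48 at P14. Ezh2, the methyltransferase of Polycomb, and the maintenance methyltransferase Dnmt1 fell (−1.31 and −0.58). The rises were Gadd45b (2.56 ± 0.48) and Gadd45g (3.25), stress-induced genes. Among 18 factors of Müller glia regeneration, as known from fish and from injured mouse retina, Tgif1 (1.66 ± 0.22), Hbegf and Myc rose. Another Tgif1 probe differed by 0.47. Fgf15 and Nfib were among those that fell. The counts of 3 higher and 3 lower were near the 14.06% and 13.52% of all genes, and both counts shrank without P7 replicate 1.

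Few genes of sterol synthesis and of antioxidant defence passed, against 27.58% of all genes. Of 19 sterol synthesis genes only Nsdhl was called (0.78 ± 0.25), and it turned to −0.050 with the mean of its probes. Of 27 glutathione and antioxidant genes only Hmox1, haem oxygenase, was called (2.53 ± 0.59). Hk2, a hexokinase, rose from 13.21 and 13.60 to 15.10, 15.39 and 15.20, and Pfkfb3, which sets the rate of glycolysis, rose by 1.84 ± 0.39. They were 2 of 4 genes called higher among 21 of glycolysis, a share near the 14.06% of all genes, where 1 (Pkm) was called lower. Only 2 were called higher without P7 replicate 2, P14 replicate 1 or P14 replicate 2, and 0 lower without either P7 array. Of 23 genes of fatty acid and lipid handling 2 were called higher and 2 lower, and 1 and 1 without either P7 array. Scd1, which desaturates fatty acids, rose by 2.27 ± 0.25, and Cpt1a, which carries them into mitochondria, by 1.70 ± 0.48, although not with median scaling, with the replicate block (adjusted p = 0.055 in limma) or without either P7 array. The falls were the fatty acid-binding proteins Fabp7 (−3.72) and Fabp5 (−0.91). Both shares of the lipid list were below the 14.06% higher and 13.52% lower over all genes. Of 25 genes of oxidative phosphorylation 9 were called lower and 1 higher, with a median of −0.63. That count hung on single settings, with 2 called lower without P7 replicate 2, 3 without P7 replicate 1, 4 without P14 replicate 3, 2 with cyclic loess and 16 with the authors' values. Atp5o, a subunit of ATP synthase, was at 13.39 and 13.22 at P7 and at 10.20, 12.03 and 10.10 at P14, and Cox5a of cytochrome oxidase fell by 0.99.

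Of 29 matrix and basement membrane genes 5 were called higher and 2 lower, and 3 and 0 without either P7 array. These matrix counts stand against 14.06% higher and 13.52% lower over all genes. Nid2, a basement membrane protein, was at 7.90 and 7.37 at P7 and at 10.26, 10.74 and 10.27 at P14. Bcan, brevican of the neural matrix, rose by 1.72 ± 0.43, and Col1a2 by 2.11 ± 0.54, while the laminin Lama1 fell by 1.33. Of 20 visual cycle and retinoid genes 3 were called higher, a share near the 14.06% of all genes, and 0 lower. Between 1 and 5 were called higher when 1 array was left out, the fewest without P7 replicate 1 or P14 replicate 2 and the most without P14 replicate 3. Cyp26b1, which degrades retinoic acid, was at 7.44 and 7.25 at P7 and at 9.21, 9.53 and 10.50 at P14, and its mean at P28 was 11.82.

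**Figure D4:**
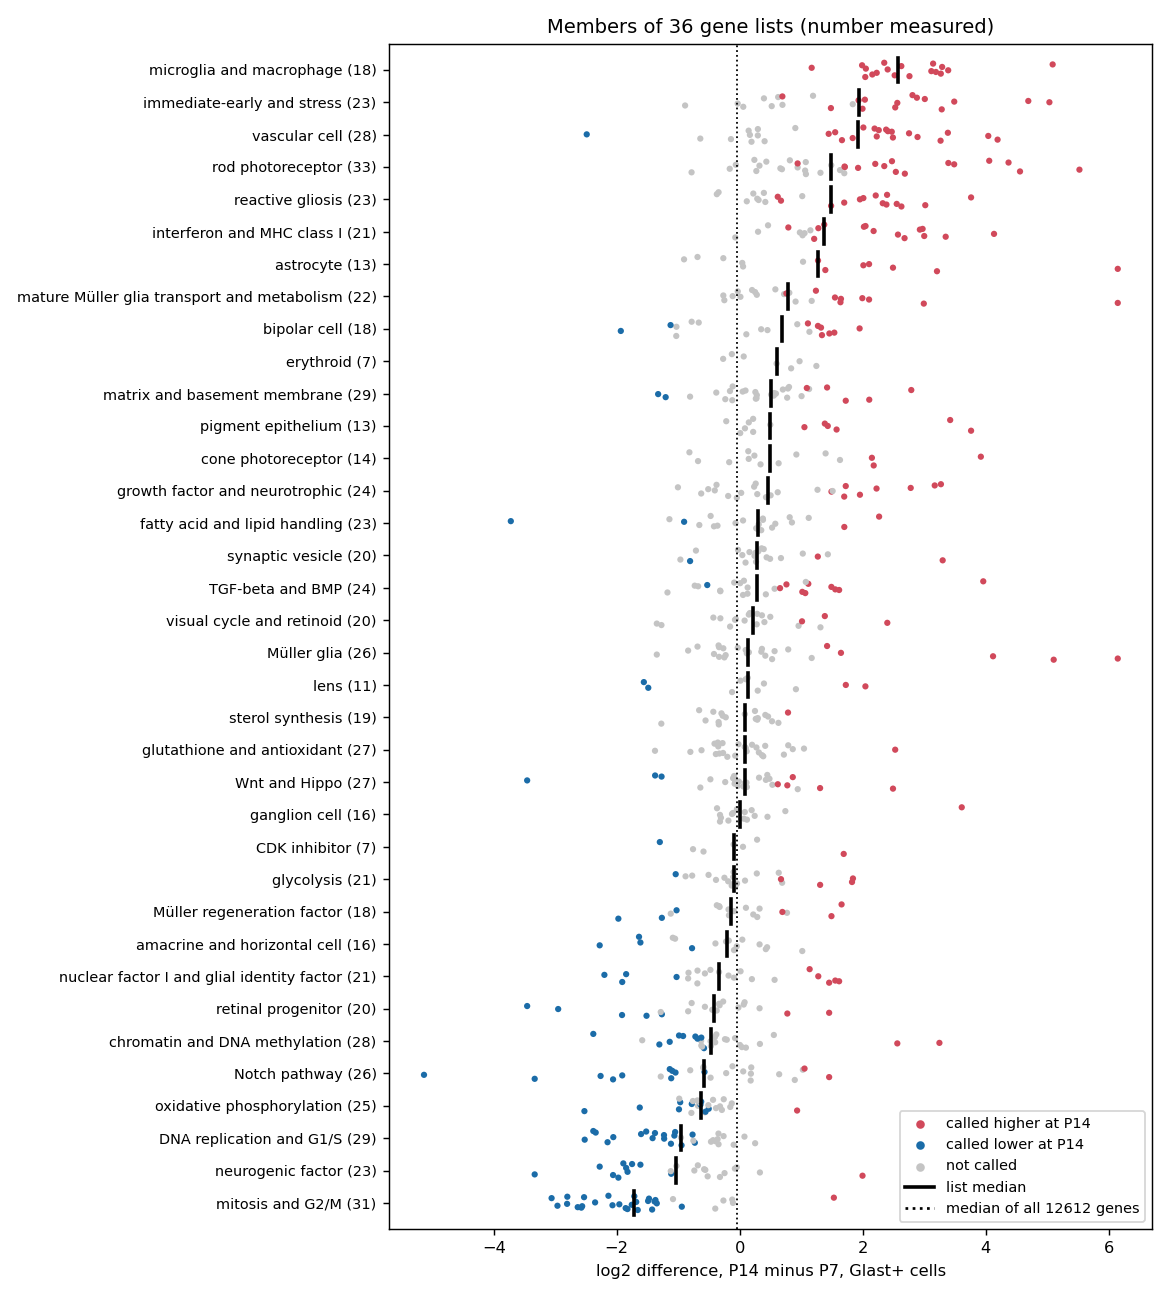
Log2 difference, P14 minus P7, of every measured member of 36 gene lists (horizontal axis), ordered by list median, with the number measured in brackets; each dot is 1 gene, red called higher, blue called lower and grey not called. The medians run from −1.71 (mitosis) to 2.57 (microglia), around −0.04 for all genes.

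The Notch1+ cells offer the same pair of ages in another capture, with 3 arrays each. The change from P7 to P14 differed between the captures for 1921 genes (15.23%), 1024 (8.12%) more positive and 897 (7.11%) more negative in Glast+ cells (limma, interaction of capture and age, adjusted p under 0.05). The balance turned with the scaling, to 337 more positive of 784 with median scaling and 736 of 1979 with the authors' values. Without P7 replicate 1 the count was 1165, and without P7 replicate 2 it was 983. Of the 146 called genes named by rule, 70 differed in this way. These genes were chosen largely by their Glast+ difference, which is part of the interaction, so their share cannot be set against the 15.23%. Aqp4 differed by 6.15 in Glast+ cells and by 1.99 in Notch1+ cells, an interaction of 4.16 ± 0.48. For 7 genes the 2 captures went in opposite directions by at least 0.5. Fhl2 had −4.14 in Glast+ and 0.90 in Notch1+ cells, Nes −2.95 and 1.60, Hey1 −2.26 and 0.997, Mcam −2.49 and 1.48, and Crybb3 −1.56 and 1.69. Hk2 had 1.83 and −0.79, and Ccn1 2.49 and −0.87.

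**Figure D5:**
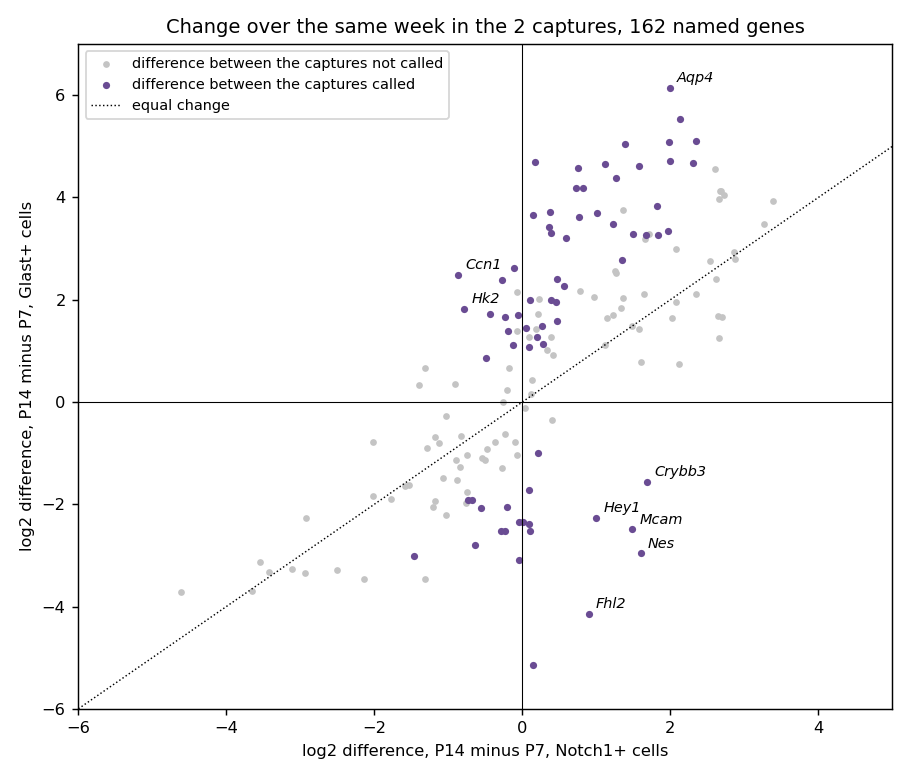
Log2 difference, P14 minus P7, in Notch1+ cells (horizontal axis) against Glast+ cells (vertical axis) for 162 named genes; each dot is 1 gene, purple where the difference between the captures was called, and the dotted line marks equal change. The labelled genes Fhl2, Nes, Hey1, Mcam and Crybb3 lie at the lower right, lower in Glast+ and higher in Notch1+ cells.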

How the data were processed

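Per the file headers, the deposited intensity of each spot and of its surroundings was read in GenePix 4.1.1.4 (635 nm, pixels of 5 µm, detector at 650). The authors' processed values, deposited as a further intensity table, served as an alternative. From 38880 spots per array, background was corrected by normexp with offset 50, using all spots, and 34312 transcript probes were kept, quantile normalized over 21 arrays and put on the log2 scale. Probes that the software found throughout some group were used (25264 probes). Symbols came from accessions matched to a RefSeq table (GRCm38.p6, names only), 1 symbol for 22987 probes and none for 11325. The brightest probe stood for a gene (4015 of 12612 genes had several). The text does not give the other probes of every such gene.

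limma 3.58.1 (R 4.3.3) was fitted with 8 group means and 13 residual degrees of freedom, tested on simulated data, with calls at a Benjamini-Hochberg adjusted p under 0.05. p-values measure the spread between these arrays only, pooled over all groups, and the number of arrays limits the precision.

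Named genes are 11 chosen marker genes (1 without a probe), the 12 largest called rises and 12 largest falls with separate arrays, up to 4 called members per list by adjusted p and the leading 2 of each of 13 cell type lists, and the 5 smallest adjusted p per direction; other list members are given by value, and a few genes under these rules are not reported here. Members, 36 lists and tests were chosen with earlier results of these data known. Alternatives were other background corrections, scalings, filters, probe rules, priors and sample sets, scan day or replicate number as a block (replicate block) and leaving out each array; averaging the P28 arrays, which carry 1 sample code, was added after seeing the data. Tables and figures used Python 3.11.15, pandas 2.3.3 and matplotlib 3.10.9.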

Additional observations from a re-analysis of the deposited data

Results flagged for a closer look

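These results are listed because a test of the difference between the captures, Glast+ against Notch1+ cells, was called for the change from P7 to P14 (limma interaction, adjusted p under 0.05, over all 12612 genes). In all 1921 genes met it, 70 of the 146 called named genes among them. Only Aqp4, a chosen marker gene, and named genes with opposite directions and a Notch1+ difference of at least 0.5 are listed. Larger interactions, such as −5.28 for Heyl, are not listed where this condition was not met. Among the named genes, the interaction was 4.16 for Aqp4 (adjusted p = 4.54e-05), which was higher at P14 in either capture. It was −5.03 for Fhl2, −4.55 for Nes, −3.26 for Hey1, −3.97 for Mcam and −3.25 for Crybb3, which were lower at P14 in Glast+ cells and higher in Notch1+ cells, and 2.61 for Hk2 and 3.36 for Ccn1, which were the other way round. The Notch1+ differences were not each tested here. All Glast+ arrays were scanned on another day than the Notch1+ arrays. A level difference between the captures thus cannot be told apart from scan day, whereas each age difference lies within a capture. On the Notch1+ arrays of P7 and P14, 11.4% to 32.5% of transcript probes lay at or below background, against 0.77% to 1.2% on the Glast+ arrays of these ages. Saturated probes numbered 42 to 148 on an array, against 5 to 20. The part of these differences in the interaction was not tested.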

How the results depend on the processing

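Higher calls numbered 1773, with 1089 under median scaling and 1225 to 1702 when 1 array was left out. Lower calls numbered 1705, with 821 under cyclic loess, 794 at 2-fold or more, and 798 to 1463 when 1 array was left out. The interaction count of 1921 became 784 with median scaling and 983 to 1829 when 1 array was left out. The replicate block gave 1608 higher and 1182 lower calls and 1574 for the interaction; it leaves P14 replicate 3 without a partner, and arrays of equal number did not deviate together (r = −0.08 and −0.20). Of 146 named genes called, 112 kept their call in every alternative chosen at the outset other than the 2-fold filter, and 29 lost it without some array, mostly a P7 array. Signs turned for Slc1a3 with cyclic loess (0.049), for Rlbp1 (−0.011) and Pax6 (−0.064) with median scaling, for Ly6h with the authors' values (0.47), for Nsdhl with the mean of its probes (−0.050) and for Best1 with no background correction (−0.0072). Leaving out 1 array gave −0.38 to 1.70 for Nrl, −0.37 to 1.22 for Gad1, −0.13 to 2.62 for Hba-a1, −0.019 to 0.26 for Rpe65 and −0.15 to 0.15 for Best1. The cause was not tested. With 2 arrays at P7, small differences and dim probes are the least certain.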
